A study of Homo sapiens with 3 samples.

Results

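MAGI1 (ENSG00000151276) encodes a scaffold protein of cell junctions. Of the 41836 m6A regions in the deposited list, from nuclear RNA of MDA-MB-231 cells, 123 lay within the gene by position. The members were all regions, on either strand, whose midpoint fell within the limits set for the gene in hg19, 65339 to 66025 kb of chromosome 3, where MAGI1 is read from the minus strand and has its promoter near 66024 kb. The gene was selected on its values in this list, namely the number of its regions, their crowding and their strand, which are therefore given as a description, without a test. MDA-MB-231 is a line of human breast cancer cells in long-term culture, and its nuclear RNA was precipitated by a rabbit m6A antibody in 2 libraries and by rabbit IgG in 1 control library, all from untreated cells as far as the labels say. The regions come as 1 list for the series with no value for a single library, so no value below has a replicate error, and neither enrichment over IgG nor the spread between the m6A libraries is known here.

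In m6A, N6-methyladenosine, adenosines of an RNA carry a methyl group, which the METTL3 and METTL14 complex adds while the RNA is being made, and readers and erasers of the mark act in the nucleus as well as in the cytoplasm. Nuclear RNA holds unspliced precursors, so a region may lie in an intron as well as in an exon. MAGI1 belongs to the membrane-associated guanylate kinases with inverted domain order. It has PDZ, WW and guanylate kinase domains, binds beta-catenin, and is known in epithelia at tight and adherens junctions. MDA-MB-231 cells have a mesenchymal character and few epithelial junctions. The list holds no expression values, so neither the level of MAGI1 RNA nor the identity of the cells could be checked against markers.

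The gene is long and almost wholly intronic. In GENCODE release 29, which is in GRCh38, MAGI1 spans 685 kb and has 18 transcripts, 10 of them protein-coding. Their exons merge into 37 blocks of 11.6 kb, which is 1.70% of the gene. In the longest transcript, of 25 exons, the first intron alone is 416 kb, or 60.7% of the transcript's span, and the second is 128 kb. Other coding transcripts start far inside the gene, 2 of them with a span of 268 kb. RefSeq also lists the noncoding RNAs MAGI1-IT1 (81.7 kb) and MAGI1-AS1 (31.5 kb). Their symbols mark them as a sense and an antisense RNA of MAGI1, and their coordinates are not given here. No coordinate was carried between GRCh38 and hg19, so regions were not placed in exons, introns or the noncoding RNAs, and reads of MAGI1-IT1 cannot be told apart here from those of MAGI1 on the same strand.

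The promoter sequence is shown because the regions crowd towards this end of the gene. It is the 250 bases before the RefSeq start of MAGI1 in GRCh38.p14, chr3:66038919-66039168 on the minus strand, written 5′ to 3′, with the motif CACGTG in capitals.
MAGI1 promoter: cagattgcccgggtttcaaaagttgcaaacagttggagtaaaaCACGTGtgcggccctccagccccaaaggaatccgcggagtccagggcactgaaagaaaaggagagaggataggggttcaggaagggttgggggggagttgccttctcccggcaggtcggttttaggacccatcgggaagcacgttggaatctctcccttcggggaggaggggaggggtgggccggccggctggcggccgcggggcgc
CACGTG, the E-box that basic helix-loop-helix factors bind, occurred once, 207 bases before the start. It occurs on either strand in 6.34% of the 35116 promoters of this length in the table. GGGCGG, the GC box, did not occur in the window on either strand, and 42.6% of the promoters hold it. The window is 62.4% G and C, against a median of 58.0% over all promoters, and has 16 CG dinucleotides, against a median of 11, and 59.0% of the promoters have fewer. Both motifs were picked after the sequence was seen, and a match is a run of letters, not a measured binding site.

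The m6A regions of MAGI1 were almost all on the strand of the gene. The minus strand held 122 of the 123 regions (99.2%; 95% Wilson interval, 95.5 to 99.9%, counting error only), against 57.3% in the rest of the list. The single plus-strand region, at 65948496 to 65948522, was 27 nt wide. It lay in the crowded part of the gene, 1456 nt above one minus-strand region and 1327 nt below the next, and overlapped neither. Its position was not compared with that of MAGI1-AS1.

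The regions had clear ground on both sides. The one nearest the promoter end lay at 66023924 to 66023947 (24 nt wide), and the next minus-strand region beyond it was 406 kb away, at 66430259 to 66430311. The nearest plus-strand region on that side was 257 kb away. The one nearest the 3′ end lay at 65341331 to 65341379 (49 nt wide), and the next minus-strand region beyond it was 1257 kb away, at 64084620 to 64084729. The run of regions therefore started and stopped within a few kilobases of the limits: the first midpoint was 1.06 kb inside the promoter limit and the last 2.35 kb inside the 3′ limit. No region of either strand lay within 100 kb outside either limit.

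Density was highest in the first 100 kb from the promoter limit and lower further along the gene. Counted in bins of 50 kb from the promoter limit towards the 3′ end, the first bin held 26 regions and the second 23. Bins 3, 4 and 5 held 12, 16 and 12. Bins 6 and 7 held 5 and 7, and bin 8, from 350 to 400 kb, held none. The first 5 bins thus made up 36.4% of the length and 72.4% of the regions (89 of 123). Counted from the 3′ end instead, the fullest bin of 50 kb held 30 regions and did not reach the promoter limit. The peak count and its place within the first 100 kb therefore depend on where bins start. The amount of RNA made from each stretch was not measured, so more marked sites and more RNA near the promoter cannot be told apart.

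Beyond bin 8 the regions were few. Bins 9 and 10 held 5 and 3 regions, bin 11, from 500 to 550 kb, held none, and bins 12 and 13 held 3 and 5. The last stretch, of 36 kb, held 6 regions, a density of 1.67 per 10 kb. This was above the 1.40 per 10 kb of bin 7, the densest full bin beyond 250 kb, but well under the 5.20 per 10 kb of the first bin. The 6 regions all lay within 9.60 kb, and the last stretch is shorter than a full bin. Its place above bin 7 therefore depends on where the stretch was cut.

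**Figure D1:**
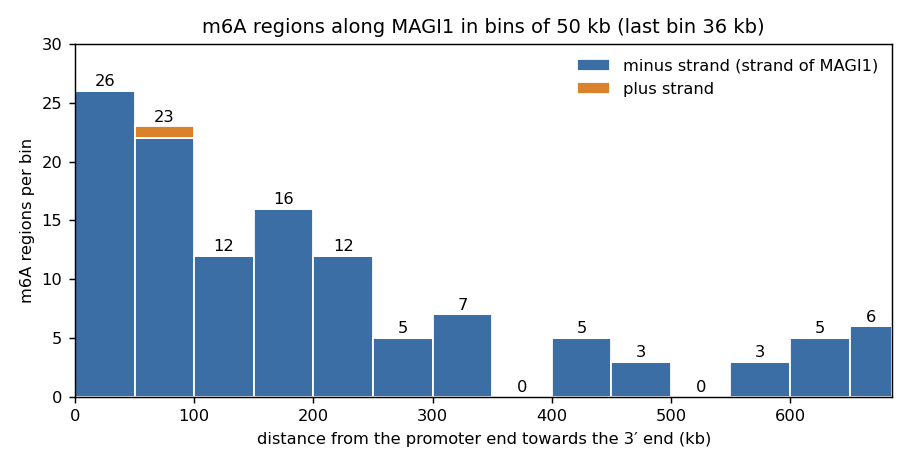
Number of m6A regions in each bin of 50 kb along MAGI1 (the last bin is 36 kb), by distance in kb from the promoter limit towards the 3′ end, with minus-strand regions in blue and the plus-strand region in orange. The first 2 bins hold 26 and 23 regions, no later bin holds more than 16, and the bins from 350 to 400 kb and from 500 to 550 kb are empty.

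Set against the occupied bins of the whole list, the first 5 bins were crowded and the later ones less so. Over all chromosomes, 7165 bins of 50 kb held at least 1 minus-strand region. Their median was 2 regions, 43.3% held a single one, and the fullest held 73. The 26 minus-strand regions of the first MAGI1 bin were matched or exceeded in 33 of these bins (0.461%), and the 22 of the second in 58 (0.809%). The 12 of bins 3 and 5 were matched or exceeded in 4.40%, and the 16 of bin 4 in 2.02%. A count of 5, as in bins 6, 9 and 13, was matched or exceeded in 21.4%. Empty bins were not counted over the list, so the 2 empty bins of MAGI1 have no share. In tiles of the same length as the gene, 1 of the 2562 tiles with a minus-strand region held at least the 122 regions of MAGI1, and the median was 5. These comparisons describe the list, and neither the number of genes in a bin nor their expression was taken into account. The bins and tiles of the list were laid from the start of each chromosome, those of MAGI1 from its own limits. The regions of MAGI1 are therefore in the list's bins and tiles, but cut at other points. A window fitted to the gene is thus set against windows that may cut other loci, so the shares are not ranks of MAGI1.

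Cut at its middle, the gene has a promoter side and a 3′ side of 343 kb each. The promoter side held 101 regions (82.1%; Wilson interval, 74.4 to 87.9%), against 22 on the 3′ side. This was 4.59 times as many over the same length. The lower quartile of the distances lay at 60.1 kb from the promoter limit, the median at 153 kb and the upper quartile at 267 kb. Evenly spaced regions would have had their median at 343 kb. The regions lie close to one another and are not independent draws, so the interval is likely too narrow.

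**Figure D2:**
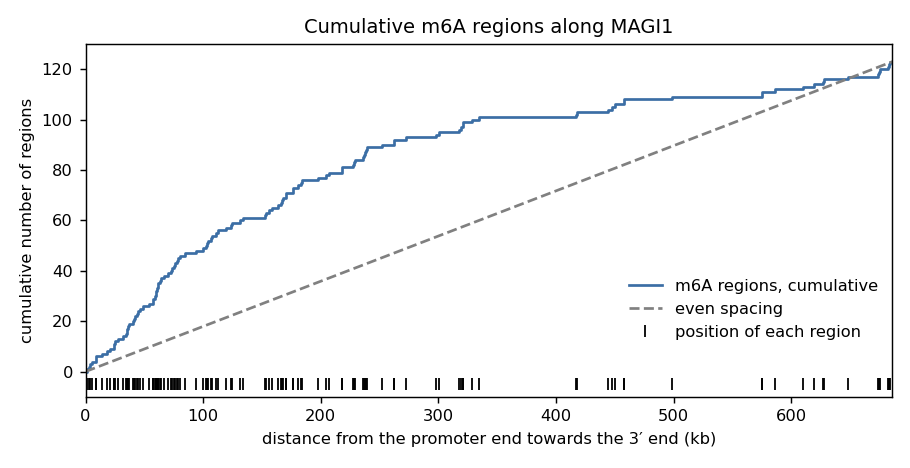
Cumulative number of m6A regions against distance in kb from the promoter limit of MAGI1 (blue), with the line that even spacing would give (grey, dashed) and a tick for each region. The curve lies above the line for most of the gene, reaches 101 regions by 343 kb, and runs flat across the 2 longest gaps, of 82.9 and 75.7 kb.

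Spacing changed along the gene in the same way. The median gap between neighbouring minus-strand regions was 1.99 kb in MAGI1, with quartiles of 0.83 and 5.26 kb, against 4.09 kb with quartiles of 0.94 and 25 kb in the rest of the minus strand. Within MAGI1, it was 1.82 kb over the 99 gaps of the promoter side and 6.50 kb over the 21 gaps of the 3′ side. The shortest gap in the gene was 110 nt, near the floor of 101 nt seen in the rest of the list. Short gaps were found on both sides, with 32.3% of the gaps at most 1 kb on the promoter side and 33.3% on the 3′ side, against 26.0% in the rest of the minus strand. The sides differed in their long gaps: 1 gap over 20 kb on the promoter side, against 6 on the 3′ side. The longest gap of the gene spans its middle and is counted on neither side.

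Long empty stretches split the gene. The longest, of 82.9 kb, ran from the region at 65690484 to 65690630 down to that at 65607581 to 65607622. The next, of 75.7 kb, ran from 65525967 to 65526015 down to 65450176 to 65450224. Another, of 41.2 kb, ran from 65567169 to 65567219 down to 65525967 to 65526015, so that the last-named region of 49 nt stood alone between 2 of the 3 longest gaps.

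Joined where neighbours lay at most 10 kb apart on the same strand, the regions fell into 17 chains, 5 of them single regions. The largest, at the promoter end from 65891078 to 66023947, held 60 regions (48.8%) on 19.4% of the length. Chains of 15 regions (65840658 to 65872390) and 10 regions (65785932 to 65807076) followed it further down. Densities in these 3 were close to each other, at 4.52, 4.73 and 4.73 regions per 10 kb. Their separation by more than 10 kb follows from the joining distance. The other chains of 3 to 6 regions had 2.26 to 3.55 regions per 10 kb, apart from that at the 3′ end. At the 3′ end a chain of 6 regions, from 65341331 to 65350931, reached 6.25 per 10 kb over 9.60 kb.

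Tight groups in the gene were small. Joined at 1 kb, the 123 regions left 84 groups, of which 55 were single regions, 23 were pairs, 4 had 3 regions and 2 had 5. The groups of 5 lay at 65963422 to 65964990, where regions of 73, 133, 85, 27 and 64 nt (in rising order of position) covered 24.3% of 1.57 kb, and at 65988062 to 65990930, where regions of 47, 39, 30, 27 and 30 nt covered 6.03% of 2.87 kb. One of the groups of 3 was at the 3′ end, at 65341331 to 65342691, with regions of 49, 50 and 87 nt. These groups were singled out after their values were seen.

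Regions in MAGI1 were close to the rest of the list in median width. Their median width was 44 nt (binomial 95% interval of the median, 39 to 47 nt). The quartiles were 30.5 and 50 nt and the extremes 19 and 201 nt. The median compares with one of 45 nt in the rest of the list, where the quartiles were 33 and 54 nt. Regions over 100 nt made up 5.69% (7 of 123; Wilson interval, 2.78 to 11.3%), against 10.3% in the rest of the list. Regions of at most 30 nt made up 25.2% (18.4 to 33.5%), against 21.6%. All 3 values of the rest of the list lie within the intervals for MAGI1. Altogether the regions covered 5.90 kb, or 0.860% of the gene. The first bin had 2.07% covered and the second 2.49%, whereas each bin beyond 250 kb had less than the 0.976% of bin 5.

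The 5 widest regions were spread along the gene. The widest, of 201 nt, lay at 65866543 to 65866743, 158 kb from the promoter limit. Regions of 178 nt (65944894 to 65945071), 147 nt (65690484 to 65690630) and 133 nt (65963609 to 65963741) also lay on the promoter side. The one of 117 nt (65376896 to 65377012) was the only region over 100 nt on the 3′ side. None of the 26 regions of the first bin, counted from the promoter limit, was over 79 nt, whereas the second bin held 2 over 100 nt.

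Widths on the dense side and the sparse side differed in their make-up. The median was 43 nt on the promoter side (interval, 35 to 46 nt), against 49 nt on the 3′ side (42 to 50 nt). Regions of at most 30 nt were 28.7% of the promoter side (29 of 101; 20.8 to 38.2%), against 9.09% of the 3′ side (2 of 22; 2.53 to 27.8%). Regions of exactly 49 nt, the most frequent width of the whole list, were 5.94% of the promoter side (6 of 101; 2.75 to 12.4%), against 31.8% of the 3′ side (7 of 22; 16.4 to 52.7%). The intervals for the 49-nt share do not overlap, but regions that lie close together are not independent draws, so the intervals are likely too narrow. The split was looked at among several and was not tested. In the minus strand of the rest of the list, 49-nt regions were 11.5%, a value between those of the 2 sides.

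**Figure D3:**
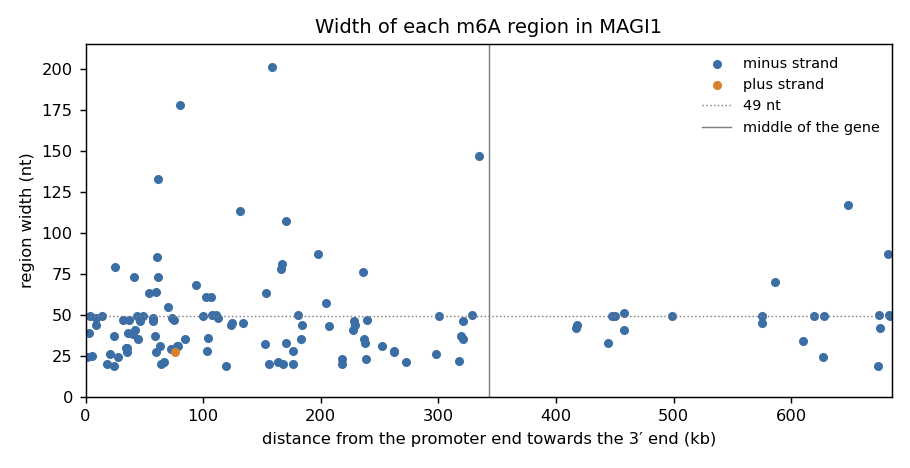
Width in nt of each m6A region in MAGI1 against distance in kb from the promoter limit, with minus-strand regions in blue and the plus-strand region in orange, a dotted line at 49 nt and a vertical line at the middle of the gene. Narrow regions of at most 30 nt are mostly to the left of the middle (29, against 2 to the right), and the widest region, of 201 nt, lies at 158 kb.

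MAGI1 stood at the sparse end among large chains. Joined at 10 kb, the list has 24 chains of 40 or more regions. The MAGI1 chain was the thinnest of them: 4.52 regions per 10 kb, against 4.64 to 13.2 in the other 23. Its regions covered 2.15% of its span, against 3.12 to 11.1% in the others. The upper end of both ranges is a plus-strand chain of chromosome 2 (92284317 to 92325923), which has 47 regions of the opposite strand within its span. For the MAGI1 chain, gaps and groups were as follows. Gaps of at most 1 kb were 35.6% of its gaps, the lowest share of the 24, whose median was 60.3%. Its largest group at 1 kb had 5 regions, as in 2 other chains, and the median of the 24 was 10. These 4 measures share the spacing of the regions and are not separate observations, and the share covered depends on width as well. Only 1 of the 24 chains had a longer span than the 133 kb of the MAGI1 chain. The longest gap inside the MAGI1 chain was 9.01 kb, so a joining distance below that would split it. The chains were compared at 10 kb only, so the place of MAGI1 among them holds for that distance.

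The MAGI1 chain also had few wide and many narrow regions for a large chain, while its median width of 45 nt was shared by 2 other chains and 1 was narrower. Regions over 100 nt made up 5% of it (3 of 60; Wilson interval, 1.71 to 13.7%), against 6.78 to 28.9% in the other 23 chains. Regions of at most 30 nt made up 25%, against at most 24.4% in the others, a difference from the next chain within counting error. Over the rest of the minus strand, regions over 100 nt were 17.6% of those in chains of 20 or more and 4.22% of those alone, and the median widths were 49 and 43 nt. The MAGI1 chain had widths nearer those of regions standing alone than those of regions in chains of 20 or more. Its 3 wide regions are few, so its place next to the chain with 6.78% is within counting error.

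**Figure D4:**
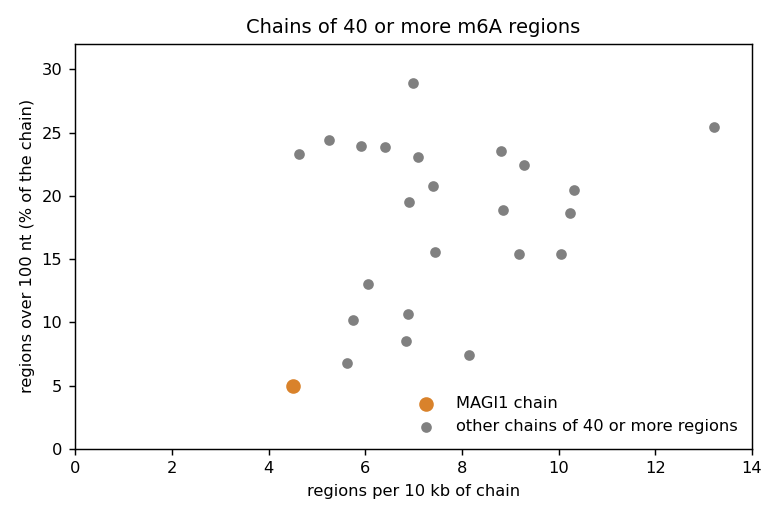
Share of regions over 100 nt (percent) against regions per 10 kb for the 24 chains of 40 or more m6A regions, one point per chain, with the MAGI1 chain in orange. The MAGI1 chain is at the lower left, with 4.52 regions per 10 kb and 5% over 100 nt.

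The 4 chains nearest to it in number of regions were shorter and more fully covered. The nearest in number (minus strand, chromosome 6, 56391233 to 56520574) also had 60 regions, in 129 kb. The MAGI1 chain held 3 regions over 100 nt and 15 of at most 30 nt, against 14 and 3 in the chromosome 6 chain. Its regions covered 2.85 kb, against 4.43 kb there. The chains of 59 regions on chromosome 9 (97767446 to 97872303, plus strand) and chromosome 14 (69340907 to 69443726, minus strand) spanned 105 and 103 kb, with 4 and 6 regions over 100 nt. The chain of 58 regions on chromosome 2 (87755431 to 87817915, plus strand) took up 62.5 kb, with 13 over 100 nt. Measured over the length of MAGI1 from the upstream end of each chain, the same strand held 122 regions in MAGI1, against 83, 59, 67 and 81 in these 4. This window is fitted to MAGI1 only and may take in other genes at the other chains, so it does not measure how far each run of regions extends.

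Within its own span, the MAGI1 chain leaned towards its upstream end. Upstream of its middle lay 38 of its 60 regions (63.3%), a share above the median of 58.3% over the 24 chains, in a range from 25.5 to 78.8%. It was exceeded in 6 of the 24. Both ends of the range came from overlapping chains on opposite strands of chromosome 2, at 92284317 to 92325923 (plus) and 92269078 to 92325754 (minus).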

How the data were processed

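The series has 2 m6A libraries and 1 IgG library of nuclear RNA. The submitters' processing notes name Bowtie2 and the build hg19. Which program called the regions, with which thresholds, and how IgG and the 2 m6A libraries entered, is not given in the sources used. The authors deposited 1 list with the start and end of each region, and the deposited score is 1 in every region and carries no height. Read depth is therefore unknown. Positions are printed counted from 1 with the end included, so the width of a region counts both of its printed positions. Gaps run from the end of one region to the start of the next on the same strand. Intervals on shares are 95% Wilson intervals and that of a median is from the binomial distribution of ranks. They cover counting error only.

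The members, gene limits, bins and lists were chosen with earlier results of these data known. Regions described singly are the 5 widest, the first and last, those on the opposite strand and those beside the 3 longest gaps. Chains named for likeness are the 4 nearest in number of regions. The comparison over 24 large chains, the split of widths at the middle of the gene and the limits of 30 and 100 nt were picked with the list in view. The planned list of junction genes was not analysed here, because the annotation used is in GRCh38 and no genome in hg19 was used, and no sequence of a region is printed for the same reason. The functions were tested on simulated regions with known chains and bins. Tables were made with pandas 2.3.3 and numpy 2.4.6, intervals with scipy 1.17.1 and figures with matplotlib 3.10.9, under Python 3.11.15.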

Additional observations from a re-analysis of the deposited data

How the results depend on the processing

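Of 23 alternatives over 7 results, 15 left the value close to the one reported, which means within the 95% interval for the shares of regions and the median width, and within 1.5 times for counts and the share of the gene covered. The promoter side kept 77.2 to 82.1% of the regions in its 4 alternatives, the median width stayed at 41.5 to 44 nt in its 3, and widening the limits by 10 kb added no region. Counts set by bin size, joining distance or a smaller set of regions moved because of how those alternatives are built. Restricted to regions wider than the list median, MAGI1 had 57 regions, 100% of them on the minus strand. The fullest bin held 15 regions with bins of 25 kb, 49 with bins of 100 kb and 15 where groups joined at 1 kb were counted once, against 26. Bins of 50 kb counted from the 3′ end gave a fullest bin of 30 regions, which is within 1.5 times. The largest chain held 5 regions at a joining distance of 1 kb, 26 at 5 kb and 100 at 50 kb, against 60 at 10 kb. No library could be left out. No paired analysis was possible because the regions come as 1 list without values of single libraries. Without read counts, the depth behind each region and its enrichment over IgG are unknown.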
